A study of Mus musculus with 6 samples.

Results

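Glutathione peroxidases, superoxide dismutases and catalase were described in single cells of the mouse renal cortex through 8 genes, *Gpx1*, *Gpx3*, *Gpx4*, *Gpx6*, *Sod1*, *Sod2*, *Sod3* and *Cat*, of 26903 genes measured. All 8 were read by symbol in each of the 6 libraries. The genes were chosen by name with measured WT and KO values of these data in view, namely the levels of *Gpx3* in loop of Henle and distal convoluted tubule cells and of *Sod3* in loop of Henle cells. Those 3 differences are therefore described without a test, and the tests of the other values are not independent of the choice. Each library came from the renal cortex of 1 mouse labelled as male and 9 months old, 3 wild type (WT) and 3 carrying a global knockout (KO) of *Prdm16*, which encodes a zinc finger transcriptional regulator. The KO had been made with CRISPR-Cas9 by deletion of exon 2, in every cell of the animal and from before birth, and the strain of these mice is not given in the sources used here.

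Superoxide, formed by the respiratory chain and by NADPH oxidases, is converted by superoxide dismutases to hydrogen peroxide, which catalase and glutathione peroxidases then remove. SOD1 is the copper and zinc enzyme of the cytosol, SOD2 the manganese enzyme of mitochondria, and SOD3 a secreted copper and zinc enzyme that binds the extracellular matrix. GPX1 acts in the cytosol and mitochondria, GPX3 is the secreted peroxidase of plasma and is made in large part by the kidney, GPX4 reduces lipid hydroperoxides in membranes and so restrains ferroptosis, and GPX6 is a relative of GPX3 first described in olfactory tissue. Catalase resides in peroxisomes, which are abundant in proximal tubule cells.

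The reading frames separate *Gpx6* from *Gpx1*, *Gpx3* and *Gpx4*, and the bases around the active site codon are shown for that reason, 5′ to 3′ on the coding strand from GENCODE vM21 transcripts, with that codon in capitals.
Gpx1: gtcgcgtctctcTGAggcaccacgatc
Gpx3: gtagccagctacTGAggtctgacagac
Gpx4: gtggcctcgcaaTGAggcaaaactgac
Gpx6: gtggcatccttcTGTggcctgacagct
In *Gpx1*, *Gpx3* and *Gpx4* the codon is TGA, which the annotation marks as selenocysteine, at codon 47 of Gpx1-201, 73 of Gpx3-201 and 129 of Gpx4-201. In *Gpx6* the codon that aligns with that of *Gpx3*, at position 73 of Gpx6-201, is TGT, which encodes cysteine. On GRCm38, *Gpx1* lies on chromosome 9 (108338903 to 108340343), *Gpx3* on chromosome 11 (54902453 to 54910377), *Gpx4* on chromosome 10 (80047166 to 80056439) and *Gpx6* on chromosome 13 (21312125 to 21319624), all on the plus strand. *Sod1* spans 90220754 to 90226329 on chromosome 16, *Sod2* 13006846 to 13040063 on chromosome 17 and *Sod3* 52363791 to 52371418 on chromosome 5, on the plus strand, and *Cat* 103453849 to 103485160 on the minus strand of chromosome 2. *Sod1* overlaps *Scaf4* on the opposite strand. Whether the counting used strand is not given in the sources used here, and reads of the pair may be shared if it did not.

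After filtering, 28488 cells were kept, between 3538 and 6276 per library, with 23107708 to 35366031 unique molecular identifiers (UMIs, counted molecules) in all and a median of 2373 to 3569 per cell. Of 28478 distinct cell barcodes, 10 occurred in more than 1 library. *Prdm16* was counted over all cells at 26.7 to 32.4 CPM (UMIs per 1000000 UMIs of the cells summed) in WT and 21.0 to 24.9 CPM in KO libraries. The reads mark the 3′ end of transcripts, outside the deleted exon, so this level does not check the genotype. *Xist*, which is transcribed from the inactive X chromosome of females, reached 297 CPM in the library of WT replicate 2, 306 CPM in that of KO replicate 1 and was at most 0.216 CPM elsewhere. These 2 libraries, 1 of each group, went against the label male, and counts of tests passed are also given without them. The cells formed 27 clusters, which were named from marker genes, so that each class name means cells that resembled that type. Classes were analysed where each library held 10 cells or more, which left 13: those of the proximal convoluted tubule (PCT), loop of Henle (LOH, thick ascending limb), macula densa, distal convoluted tubule (DCT), connecting tubule (CNT), principal cells (PC), intercalated cells (IC), podocytes, endothelium, stroma and mesangium, macrophages, and T and NK cells, and a cluster scored as descending limb. Of that cluster's markers, *Aqp1*, the water channel of the descending limb, had 36 to 1050 UMIs in the WT libraries and KO replicate 1 but 0 in KO replicates 2 and 3, while *Akap12* was present in all 6 libraries (82 to 263 UMIs). It is therefore called the *Akap12* cluster. PCT held 37, 165 and 224 cells in WT replicates 1 to 3 and 11, 37 and 16 cells in KO replicates 1 to 3, so its KO levels rest on few cells.

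*Gpx3* was the most unequally distributed of the peroxidases over classes. Levels are given in CPM of the UMIs of the class, as the mean ± SD over the 6 libraries. PCT held *Gpx3* at 13801 ± 5134 CPM and IC at 2589 ± 803 CPM, followed by the *Akap12* cluster at 876 ± 670 and DCT at 627 ± 529. PCT was above IC in 6 of 6 libraries and IC above the *Akap12* cluster in 6 of 6, whereas the *Akap12* cluster was above DCT in only 3 of 6. The lowest level was that of PC, at 23.8 ± 9.74 CPM. T and NK cells, which should lack *Gpx3*, read 44.6 ± 34.3 CPM. This is a guide to the background of free RNA for the low levels, though not its exact level in classes of other depth. In barcodes with at least 10 and under 100 UMIs, which hold mostly free RNA, *Gpx3* was at 223 to 1068 CPM.

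The cytosolic and membrane peroxidases were spread more evenly. *Gpx1* was highest in PCT at 2377 ± 815 CPM, above macrophages at 611 ± 124 in 6 of 6 libraries. Macrophages and endothelial cells, at 523 ± 58.0 CPM, changed places in 1 of 6 libraries, and podocytes were lowest at 86.7 ± 14.1, below LOH in 6 of 6. *Gpx4* was highest in PCT at 294 ± 60.3 CPM, above podocytes at 226 ± 37.5 in 6 of 6 libraries. Macrophages had the lowest level, 20.7 ± 11.4 CPM, below T and NK cells in 6 of 6.

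*Gpx6* was found in LOH, macula densa and DCT cells and was near absent elsewhere, CNT included. Its level was 412 ± 119 CPM in LOH, 211 ± 59.2 in macula densa cells and 101 ± 75.9 in DCT, each above the next in 6 of 6 libraries. The other 10 classes lay between 1.68 and 8.58 CPM, within the range of 0 to 10.6 CPM in T and NK cells except in single libraries. Among LOH cells, those with more *Cldn10* than *Cldn16* UMIs, claudins that mark different thick limb cells, held 335 to 672 CPM, and those with more *Cldn16* held 56.4 to 343 CPM. The *Cldn10* cells were above the *Cldn16* cells of the same library in 6 of 6.

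Of the dismutases, *Sod1* and *Sod2* were found in every class and *Sod3* in few. *Sod1* was at 651 ± 126 CPM in PCT, 561 ± 86.7 in T and NK cells and 532 ± 44.7 in endothelial cells, an order that did not hold in every library, and was lowest in LOH at 134 ± 8.07. *Sod2* differed little over the mitochondria-rich tubule classes, with IC at 351 ± 40.2 CPM, PCT at 333 ± 73.3, DCT at 331 ± 33.6, PC at 317 ± 26.6, LOH at 304 ± 24.1 and CNT at 294 ± 31.0. No neighbours among those 6 classes kept their order in 6 of 6 libraries, and macrophages were lowest at 58.0 ± 11.5. Neutrophils, found in 5 libraries and not among the 13 classes, read higher still, at 712 ± 178 CPM of *Sod2*. *Sod3* was at 984 ± 147 CPM in PCT, 220 ± 162 in the *Akap12* cluster, 58.9 ± 11.6 in stroma and mesangium and 43.8 ± 16.8 in podocytes, and at 10.4 ± 9.49 in LOH. T and NK cells had 0 *Sod3* UMIs, which allows up to 1.66 CPM over the 6 libraries (3 counts, counting error only). *Cat* stood apart in PCT, at 559 ± 95.2 CPM, above podocytes at 77.2 ± 3.82 in 6 of 6 libraries, and the other classes lay between 27.4 and 69.2 CPM.

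**Figure D1:**
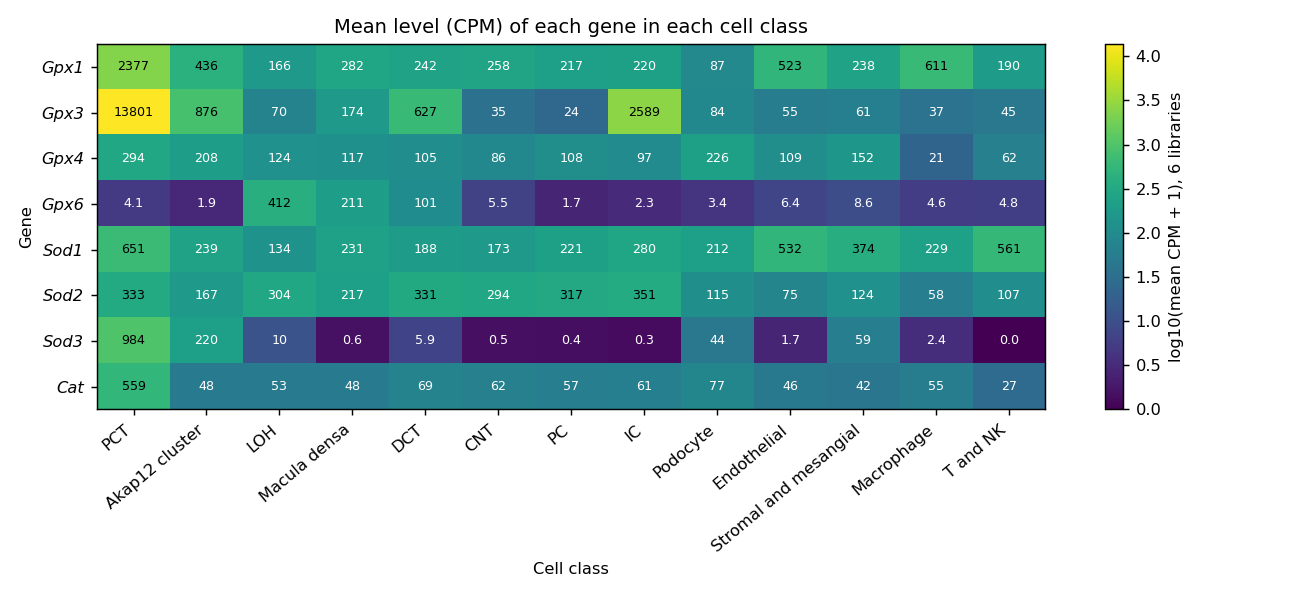
Mean level of each gene (rows) in each of 13 cell classes (columns), in CPM over 6 libraries, written in the cells and coloured as log10(mean CPM + 1). *Gpx1*, *Gpx3*, *Gpx4*, *Sod1*, *Sod3* and *Cat* were highest in PCT, *Gpx6* in LOH and *Sod2* in IC.

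The genes whose levels over the 13 classes most resembled each member were taken by Pearson's r of log2(mean CPM + 1) among 12330 genes, as a description over classes that share their libraries. For *Sod2* they were *Mdh1* (r = 0.98), the malate dehydrogenase of the cytosol, and *Atp5b* and *Atp5a1*, subunits of the mitochondrial ATP synthase (both r = 0.98). For *Cat* they were the peroxisomal enzymes *Pecr* (r = 0.97) and *Scp2* (r = 0.96), and *Pcx*, pyruvate carboxylase (r = 0.96). *Gpx6* was most like *Kcnn2*, a potassium channel (r = 0.95), *Dusp9*, a phosphatase (r = 0.93), and *Tmem28* (r = 0.92). *Sod3* came nearest to *Cmbl* (r = 0.91), *C1qtnf3* (r = 0.87) and *Dpep1* (r = 0.87), and *Gpx3* to *Igsf11* (r = 0.91), *Fut9* (r = 0.87) and *Tmem37* (r = 0.87). The nearest genes of *Gpx1* were *Pacc1*, *Gfer* and *C2* (r from 0.89 to 0.93), those of *Gpx4* *Trappc11*, *Urgcp* and *Zfp706* (r from 0.92 to 0.93), and those of *Sod1* *Tomm70a*, *Rnaseh2c* and *H13* (r from 0.89 to 0.90).

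To ask whether loss of *Prdm16* went with other levels of these genes, the 3 KO and 3 WT libraries were compared within each class by edgeR's quasi-likelihood test on counts summed per library, with Benjamini-Hochberg adjustment over all genes tested in the class and a threshold of 0.05. Of 104 pairs of a member and a class, 88 passed the filter on low counts. The 16 that did not were *Gpx6* in 8 classes, *Sod3* in 7 and *Cat* in 1. Of the 88, 3 were the differences that prompted the choice and are left out of the counts here, and 6 of the other 85 passed the test. Among all genes the share that passed was 4.36% in LOH, where 1 of the 6 members left passed, 1.03% in DCT (1 of 7), 0.905% in macula densa cells (1 of 7), 0.592% in IC (1 of 6), 3.14% in CNT (1 of 7) and 1.69% in podocytes (1 of 8). No member passed in PC (2.26% of genes), macrophages (0.436%), endothelial cells (0.194%), stroma and mesangium (0.0516%), PCT (0.0325%), T and NK cells (0.0257%) or the *Akap12* cluster (0%). In the *Akap12* cluster edgeR called 0 genes, with 315 at an unadjusted p under 0.05, and DESeq2 called 23, among them *Gpx3* and *Sod3*. Over all cells summed, edgeR called 1.07% of genes and 0 of the 8 members, 4 of them at an unadjusted p under 0.05 and 2 by DESeq2. The 6 differences lay in *Gpx3*, *Gpx6* and *Sod3*, and the other 5 genes passed in 0 classes. Among the 6, *Gpx6* in CNT passed the filter on low counts only through its KO levels.

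**Figure D2:**
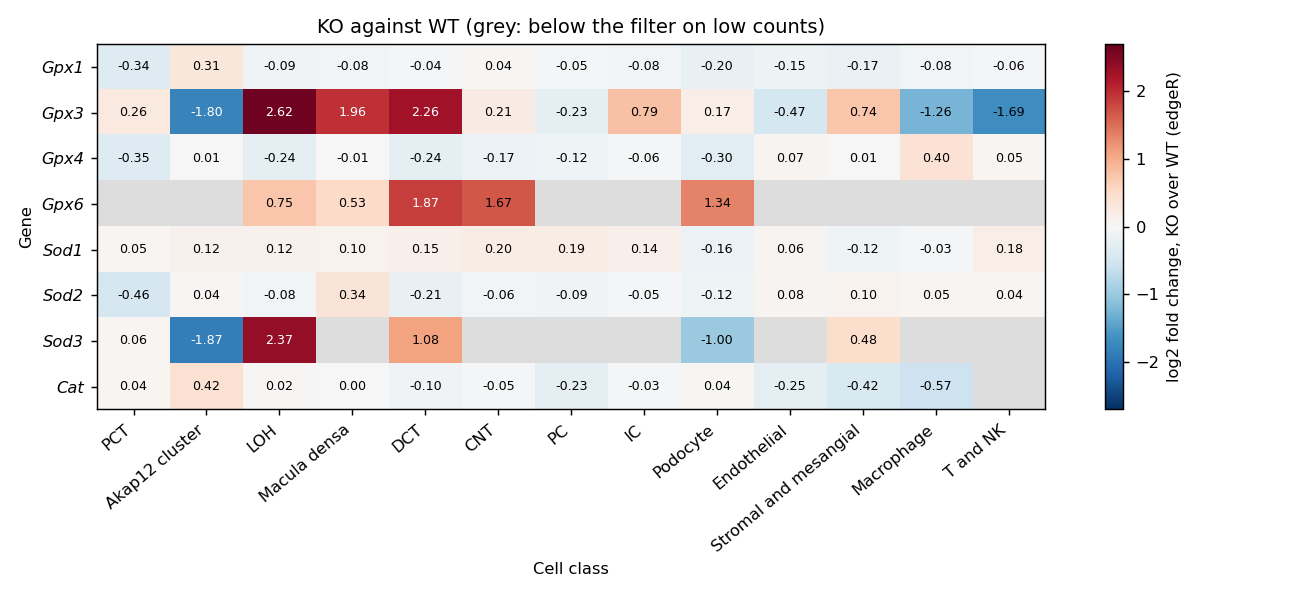
Log2 fold change, KO over WT, of each gene (rows) in each cell class (columns), as fitted by edgeR on 3 KO and 3 WT libraries. Grey marks pairs below the filter on low counts. The values of *Gpx3*, *Gpx6* and *Sod3* reach from -1.87 to 2.62, those of the other 5 genes from -0.57 to 0.42.

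*Gpx3* was higher in KO than in WT in the thick limb, the macula densa and the distal convoluted tubule. Replicates 1 to 3 of the WT held 11.7, 30.9 and 15.2 CPM in LOH, and those of the KO 192, 70.9 and 98.1 CPM. For DCT the WT values were 176, 240.1 and 229 CPM, and the KO values 1519.9, 926 and 674 CPM. The groups did not overlap in either class, and KO replicate 1 was the highest library in both. The log2 fold change was 2.62 ± 0.36 (SE, n = 3 per group) in LOH and 2.26 ± 0.21 in DCT, or 6.15-fold and 4.79-fold. These are the differences by which the gene was chosen, so no test is given. Among the libraries without *Xist* the order was the same, with 11.7 and 15.2 against 70.9 and 98.1 CPM in LOH and 176 and 229 against 926 and 674 CPM in DCT.

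The WT level in LOH was no higher than that of T and NK cells, which were shallower and so do not fix the background of LOH. T and NK cells of the same libraries held 28.9, 104 and 63.6 CPM of *Gpx3* in WT, above the LOH value of each library, and 16.9, 13.7 and 40.4 CPM in KO, below it. The 18 markers of the PCT list summed to 16.9 to 83.6 CPM in WT and 37.3 to 39.9 CPM in KO LOH, with 2 to 11 of them at 0 per library. At the ratio of *Gpx3* to those markers in PCT of the same library, these sums correspond to 5.65 to 32.9 CPM of *Gpx3* in WT and 7.41 to 26.1 CPM in KO, against 70.9 to 192 CPM measured in KO. The 10 markers of the IC list moved with the group, from 33.1 to 47.2 CPM in WT to 59.9 to 145 CPM in KO LOH, with 0 to 2 of them at 0 per library. *Atp6v0d2*, a proton pump subunit at 18.5 to 30.4 against 47.2 to 108 CPM, and *Slc4a9*, an anion exchanger at 3.56 to 4.74 against 6.18 to 18.6 CPM, were the members of that list with every KO library above every WT library. At the ratio of *Gpx3* to the list in IC, the sums correspond to 5.64 to 14.6 CPM in WT and 22.0 to 54.1 CPM in KO, below the measured level in every KO library. The size of the LOH difference also rested on which cells were kept. With a mitochondrial limit of 30% the WT levels were 35.3 to 117 CPM and the KO levels 133 to 268 CPM, a log2 fold change of 1.43, and with no doublets removed the change was 1.35.

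Within LOH the difference was found in both kinds of thick limb cell. *Cldn10* cells held 11.4, 27.3 and 13.6 CPM of *Gpx3* in WT and 226, 87.7 and 114 CPM in KO, and *Cldn16* cells 3.77 to 21.0 CPM in WT and 42.2 to 117 CPM in KO. Neither pair of groups overlapped. In the cluster of shallow LOH cells, with 9 to 68 *Gpx3* UMIs per library, the WT values were 37.4, 236 and 64.0 CPM and the KO values 229.9, 135 and 119.8 CPM, and there the groups overlapped.

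In macula densa cells, which sense chloride at the end of the thick limb, *Gpx3* was at 63.0, 117 and 28.2 CPM in WT, against 402, 214 and 223 CPM in KO. Every KO library was above every WT library. The PCT markers summed there to 139 to 206 CPM in WT and 197 to 227 CPM in KO, with 10 to 14 of 18 at 0 per library. At the ratio in PCT these correspond to 24.0 to 131 CPM of *Gpx3* in WT, above the measured level of replicate 2, and to 42.2 to 135 CPM in KO, below each measured level. The log2 fold change was 1.96 ± 0.31, with an adjusted p of 0.00158 in edgeR's quasi-likelihood test. It was 2.58 without WT replicate 2, and the adjusted p was 0.130 in DESeq2. Without a mitochondrial limit, where the cells were clustered anew and the class of that name held 333 WT and 391 KO cells, the change was -0.20, with 393 to 457 CPM in WT and 255 to 475 CPM in KO.

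In IC, whose cells secrete acid or bicarbonate, the level was 2105, 2226 and 1447 CPM in WT against 3533, 3348 and 2876 CPM in KO, with a log2 change of 0.79 ± 0.15 (adjusted p = 0.0425, edgeR). This call was lost without WT replicate 1, 2 or 3 and without KO replicate 1 or 2 (adjusted p from 0.0560 to 0.169), without both *Xist* libraries (0.0970), with no doublets removed (0.0501) and with the replicate number as a block (0.0885). Among IC, 2 clusters were led by *Slc26a4* (type B). The larger, of 1646 shallow cells, held 1152 to 1468 CPM in WT and 2262 to 3079 CPM in KO, and the deeper, of 582 cells, 2572 to 4988 CPM in WT and 4781 to 5851 CPM in KO. The *Slc4a1* cluster (type A, 575 cells) held 348 to 647 CPM in WT and 866 to 1372 CPM in KO. Both *Slc26a4* clusters were above the *Slc4a1* cluster in 6 of 6 libraries, and the groups overlapped in the deeper *Slc26a4* cluster but not in the other 2.

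**Figure D3:**
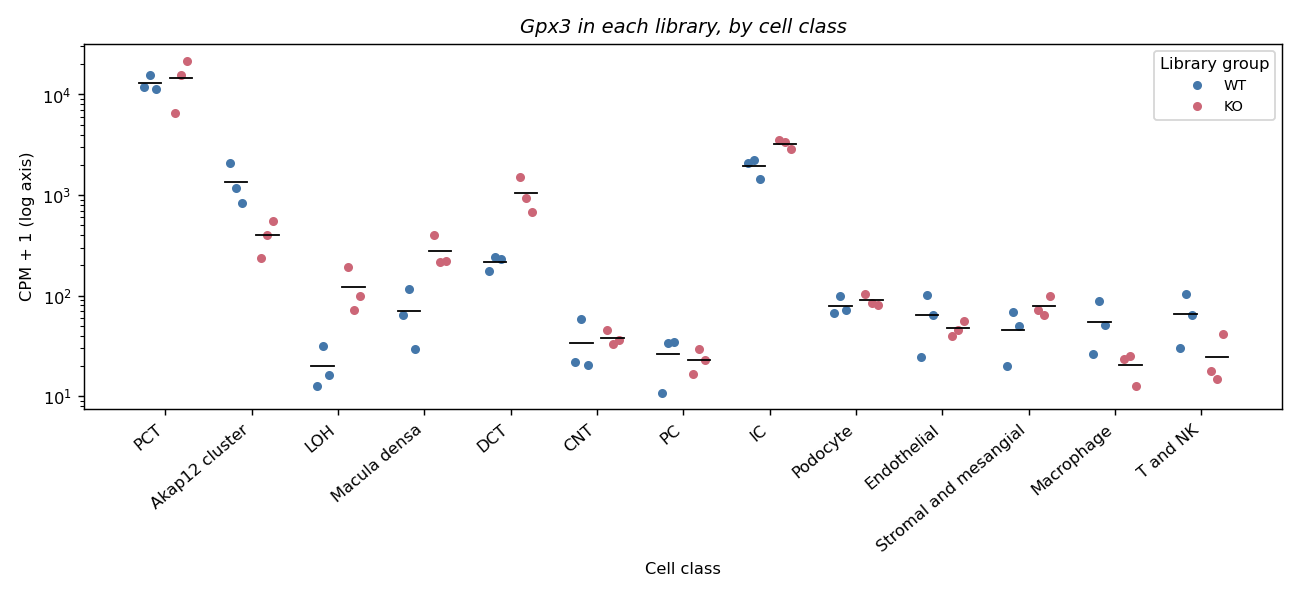
Level of *Gpx3* in each library by cell class, as CPM + 1 on a log axis. Points are libraries (3 WT, 3 KO) and bars the group means. KO points lie above all WT points in LOH, macula densa cells, DCT and IC and below them in the *Akap12* cluster and macrophages.

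In PCT, the class with the highest level, the difference did not pass and its interval was wide. There *Gpx3* read 11815, 15781 and 11343 CPM in WT against 6576, 15582 and 21708 CPM in KO, with a log2 change of 0.26 ± 0.53 (95% interval -0.78 to 1.30), and over the alternatives it ran from -0.41, without KO replicate 3, to 0.91, without both *Xist* libraries. In the *Akap12* cluster *Gpx3* was at 2065, 1177 and 827 CPM in WT, against 237, 400.4 and 550.3 CPM in KO. Each KO library lay below each WT library, with a log2 fold change of -1.80 ± 0.40 (adjusted p = 0.259, edgeR). The PCT markers summed there to 291 to 416 CPM in WT and 150 to 223 CPM in KO, with 8 to 12 of 18 at 0 per library, and *Aqp1* had 0 UMIs in 2 KO libraries, as given above. The part of either in the difference was not tested. Macrophages (25.2, 87.2 and 50.4 against 22.5, 24.2 and 11.8 CPM) and T and NK cells, both in the range of background, had log2 fold changes of -1.26 ± 0.48 and -1.69 ± 0.57 with adjusted p of 0.360 and 0.944 in edgeR. Without WT replicate 2 the change in macrophages was -0.64. In the remaining 5 classes the change ran from -0.47 in endothelial cells to 0.74 in stroma and mesangium, and none passed.

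*Gpx6* was higher in KO in LOH and DCT, and in CNT on few UMIs. In LOH it was at 323, 259 and 339 CPM in WT, against 510.4, 545 and 497 CPM in KO. The KO libraries lay above all WT libraries, by 0.75 ± 0.11 on the log2 scale (1.68-fold, adjusted p = 0.00203, edgeR). With a mitochondrial limit of 30%, which left 411 WT and 398 KO cells, it was 0.84 with an adjusted p of 0.128. *Cldn10* cells held 335 to 444 CPM in WT and 614 to 672 CPM in KO, and *Cldn16* cells 56.4 to 157 CPM in WT and 250.4 to 343 CPM in KO, so that the groups were apart in both.

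In DCT *Gpx6* was at 42.0, 30.7 and 57.7 CPM in WT against 228, 149.6 and 96.5 CPM in KO, with a log2 change of 1.87 ± 0.25 (3.65-fold, adjusted p = 0.00211, edgeR). The groups did not overlap, and the change was 1.30 among the 4 libraries without *Xist*. The 7 markers of LOH summed in DCT to 2409 to 3732 CPM in WT and 3506 to 7397 CPM in KO, with 0 to 2 at 0 per library and 0 of 7 higher in every KO library than in every WT library. At the ratio of *Gpx6* to those markers in LOH of the same library, the sums correspond to 16.7 to 31.4 CPM of *Gpx6* in WT and 42.2 to 89.6 CPM in KO, below the measured level in 6 of 6 libraries. In CNT the change was 1.67 ± 0.42 (adjusted p = 0.0450, edgeR) on 13, 5 and 12 UMIs in WT against 56, 12 and 19 UMIs in KO. The WT libraries alone would not have passed the filter on low counts, so *Gpx6* was tested in CNT only through its KO levels. Levels there, 1.13 to 4.07 CPM in WT and 5.45 to 11.9 CPM in KO, fell in the range of T and NK cells but for KO replicate 1. That call was lost without WT replicate 1 or 2 or any 1 KO replicate (adjusted p from 0.0531 to 0.332) and with no doublets removed (0.131), and the change was 0.84 (0.583) without both *Xist* libraries and 0.91 without a mitochondrial limit. In macula densa cells *Gpx6* was at 208, 151 and 160.0 CPM in WT, against 310.1, 246 and 192 CPM in KO, with groups that overlapped, a change of 0.53 ± 0.18 and an adjusted p of 0.293 in edgeR. Podocytes held 5 to 12 UMIs in WT and 11 to 21 in KO, with a change of 1.34 ± 0.51 and an adjusted p of 0.187. There too the WT libraries alone would not have passed the filter on low counts.

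*Sod3* was higher in KO in LOH and lower in KO in podocytes. Its LOH level, chosen as stated, was 2.55, 4.37 and 2.90 CPM in WT, against 27.1, 14.5 and 11.1 CPM in KO, on 14 to 27 UMIs in WT and 89 to 140 in KO. The groups did not overlap, and the log2 fold change was 2.37 ± 0.33 (5.17-fold). *Cldn10* cells (2.77 to 5.15 against 11.7 to 28.8 CPM) and *Cldn16* cells (1.18 to 1.88 against 9.26 to 23.4 CPM) both showed it. At the ratio of *Sod3* to the PCT markers in PCT, the PCT marker sums in LOH correspond to 0.536 to 1.66 CPM in WT and 0.993 to 1.25 CPM in KO.

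In podocytes, the filtration cells of the glomerulus, *Sod3* was at 56.2, 65.5 and 53.4 CPM in WT, against 35.4, 27.6 and 24.8 CPM in KO. Every KO library lay below every WT library, the log2 fold change was -0.998 ± 0.14 (2.00-fold lower), and the adjusted p was 0.00485 in edgeR. The call stayed under each of the 16 alternatives run, with changes from -1.14 to -0.84. The alternative with classes of at least 20 cells repeats the main test here and could not differ. The podocyte markers themselves summed to 17511 to 20446 CPM in WT and 14569 to 16037 CPM in KO, with 0 of 7 at 0 and 3 of 7 below in every KO library. Their part in the result was not tested. In the *Akap12* cluster the level was 473, 340.0 and 228 CPM in WT, against 132, 45.2 and 102 CPM in KO, a change of -1.87 ± 0.40 that did not pass in edgeR (adjusted p = 0.247) and did in 4 of 15 alternatives, DESeq2 (0.00702) among them. In DCT *Sod3* rested on 6 to 25 UMIs per library, at 1.38 to 5.02 CPM in WT and 6.06 to 8.93 CPM in KO (1.08 ± 0.40, adjusted p = 0.346). The WT libraries of DCT alone would not have passed the filter on low counts. PCT gave 1119.6, 795 and 1029 CPM in WT, against 880.2, 1171 and 906 CPM in KO, a change of 0.06 ± 0.33 (95% interval -0.58 to 0.70). In stroma and mesangium every KO library was above every WT library, with a change of 0.48 ± 0.26 that did not pass (adjusted p = 0.721, edgeR).

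**Figure D4:**
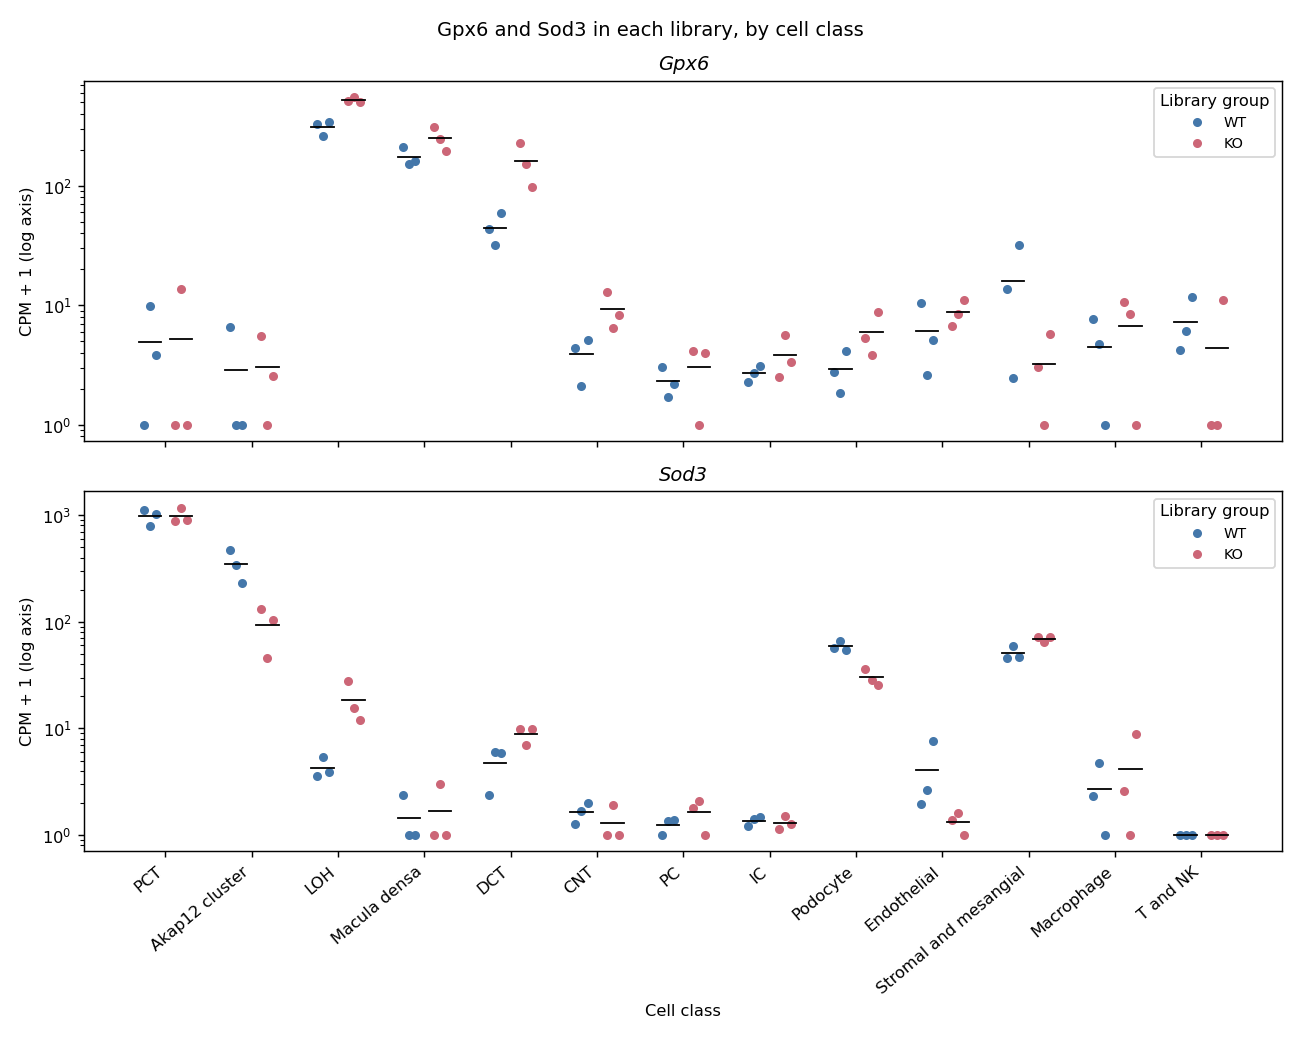
Levels of *Gpx6* (top) and *Sod3* (bottom) in each library by cell class, as CPM + 1 on a log axis. Points are libraries (3 WT, 3 KO) and bars the group means. *Gpx6* in KO lies above WT in LOH, DCT and CNT. *Sod3* in KO lies above WT in LOH, DCT, and stroma and mesangium. It lies below WT in podocytes, the *Akap12* cluster and, on 11 WT and 2 KO UMIs, endothelial cells.

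The same differences were seen as shares of cells with a UMI once every cell had been thinned to 1000 UMIs. For *Gpx3* in LOH the share was 2.51%, 6.26% and 4.78% of 439 to 481 cells in WT and 17.8%, 8.10% and 11.7% of 461 to 555 cells in KO. T and NK cells read 2.67%, 6.57% and 6.25% in WT and 2.99%, 0.971% and 2.50% in KO. The LOH share was thus below theirs in each WT library and above it in each KO library. T and NK cells were shallower than LOH cells, and thinning does not change the fraction of free RNA in a cell. Their share therefore does not fix the background of LOH. Before thinning, the LOH shares were 7.72% to 21.8% in WT and 32.8% to 45.3% in KO at median depths of 2720 to 12868 UMIs, against 3.54% to 11.3% in T and NK cells at 1679 to 2457 UMIs. In DCT, *Gpx3* was found in 12.98% to 23.0% of thinned WT cells and 44.3% to 71.9% of thinned KO cells (44.1% to 57.3% and 67.2% to 77.0% unthinned). *Gpx6* in LOH was found in 20.6% to 26.0% and 32.4% to 42.6% of thinned cells (50.5% to 59.9% and 67.2% to 72.4% unthinned), with at most 0.962% in T and NK cells. *Sod3* was found in 0% to 0.671% of thinned WT and 1.44% to 2.60% of thinned KO cells of LOH, and in 3.69% to 6.60% and 1.74% to 3.59% of thinned podocytes, with 0 such T and NK cells. Thinning left out 108 to 144 LOH cells, 61 to 145 DCT cells, 39 to 154 podocytes and 7 to 21 T and NK cells per library, which had fewer than 1000 UMIs. Levels were unequal among cells of 1 class. In DCT of the KO libraries the highest 10% of cells held 45.5% to 50.3% of *Gpx3* UMIs, with up to 99 in 1 cell, and the median cell had 2 or 3.

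**Figure D5:**
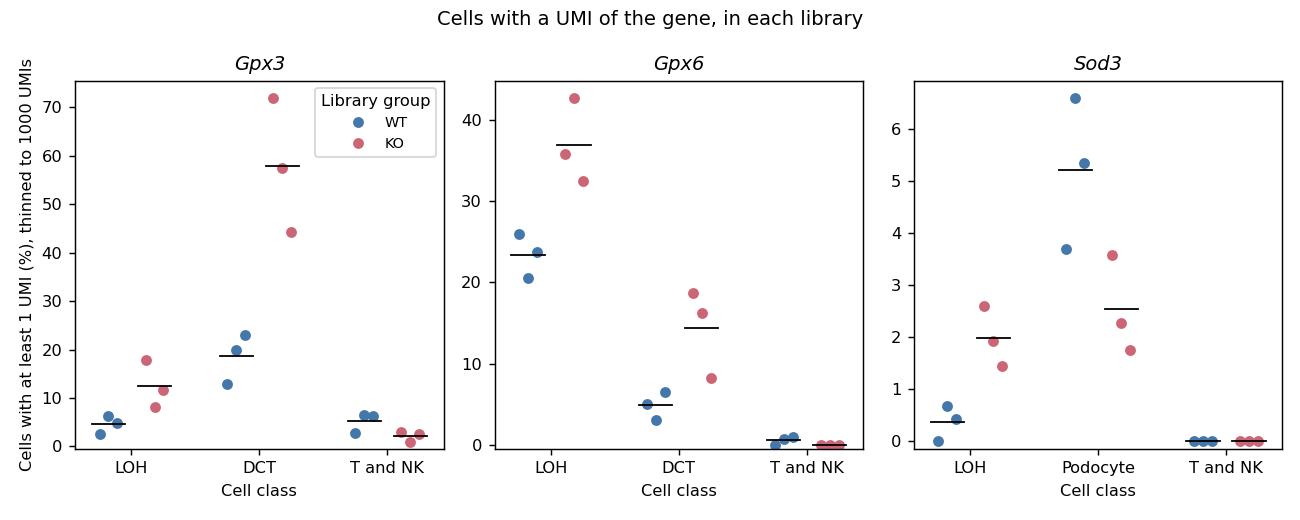
Share of cells with at least 1 UMI of *Gpx3*, *Gpx6* and *Sod3* (panels) after thinning each cell to 1000 UMIs, in the class of each change and in T and NK cells for comparison. Points are libraries and bars group means. *Gpx3* in LOH of WT lies at the T and NK level (2.51% to 6.26%), and of KO at 8.10% to 17.8%.

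The remaining 5 genes passed in 0 classes. Over 64 tests of *Gpx1*, *Gpx4*, *Sod1*, *Sod2* and *Cat*, the log2 fold changes ran from -0.57 to 0.42, 36 were negative and 1 exceeded 0.5 in size. edgeR and DESeq2 each called 0, and 2 had an unadjusted p under 0.05, with a smallest adjusted p of 0.163. Those 2 were of *Gpx4*, in LOH at 134 ± 10.9 CPM in WT and 114 ± 4.86 in KO (SD, n = 3 per group, change -0.24 ± 0.09, and 0.10 with a mitochondrial limit of 30%) and in podocytes at 249 ± 41.6 and 204 ± 16.4 CPM (-0.30 ± 0.13, adjusted p = 0.236). *Sod1* had the narrowest range of changes over classes, from -0.16 in podocytes to 0.20 in CNT. The largest change of *Sod2* was -0.46 ± 0.32 in PCT, with 392 ± 10.4 CPM in WT and 273 ± 52.1 in KO, and that of *Cat* -0.57 ± 0.28 in macrophages, at 67.6 ± 11.7 and 42.0 ± 8.84 CPM. *Gpx1* in PCT was at 2762 ± 126 CPM in WT and 1992 ± 1095 in KO, a change of -0.34 ± 0.49.

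Over all of the 8 genes tested in a class, without the 3 differences behind the choice, the median log2 fold change was -0.03 in LOH, -0.04 in DCT, 0.10 in macula densa cells and -0.14 in podocytes, beside medians over all genes of -0.0050, 0.0041, 0.0032 and 0.0043.

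Promoters are shown for *Gpx3* and *Gpx6*, which were higher in KO in both LOH and DCT, from 250 bases before to 50 after the start, from RefSeq on GRCm38.p6. The RefSeq starts differ from those of the GENCODE coordinates given above for these genes. The whole *Gpx3* window lies within the GENCODE bounds of the gene. Of the 8 genes 7 were matched, with 10 promoters in all. Capitals mark matches, on either strand, to AGAACA (the half-site of glucocorticoid and related steroid receptors) and ACGTG (the core of the hypoxia response element).
Gpx3 (chr11:54902604-54902903, plus strand): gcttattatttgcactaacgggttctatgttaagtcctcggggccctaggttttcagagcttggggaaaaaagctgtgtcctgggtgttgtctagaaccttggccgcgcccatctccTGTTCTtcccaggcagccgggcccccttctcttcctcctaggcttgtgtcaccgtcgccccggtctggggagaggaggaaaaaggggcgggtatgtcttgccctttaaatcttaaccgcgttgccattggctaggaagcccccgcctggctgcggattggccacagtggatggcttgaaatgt
Gpx6 (chr13:21311953-21312252, plus strand): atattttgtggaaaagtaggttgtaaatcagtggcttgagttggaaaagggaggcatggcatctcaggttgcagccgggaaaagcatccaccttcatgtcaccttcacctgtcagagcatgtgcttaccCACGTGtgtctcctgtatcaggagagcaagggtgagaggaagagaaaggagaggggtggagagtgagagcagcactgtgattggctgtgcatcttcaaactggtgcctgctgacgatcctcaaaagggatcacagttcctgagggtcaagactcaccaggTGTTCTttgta
AGAACA matched once in each of these promoters and in 3 of the 10, and in 19.0% of 32851 promoters of the same length. ACGTG matched in *Gpx6* on both strands at 1 place and in 2 of the 10, against 19.6% of all. TGACNNNGC, the core of the antioxidant response element, matched in 1 of the 10, that of *Sod1*, against 12.4% of all, and AAGGTCA, a nuclear receptor half-site, in 0 against 4.72%. A match is a match of letters and says nothing of binding.

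Around the 8 genes, 83 genes in 7 lists were examined, with 591 tests over the 13 classes, of which 9 passed with a higher and 8 with a lower level in KO. These are 2.88% of the tests, where among all genes 1.47% passed over the 13 classes added up, 4.36% in LOH and 3.14% in CNT. Among the other glutathione peroxidases 0 of 12 tests passed in edgeR, and among the peroxiredoxins, which also reduce hydrogen peroxide, 0 of 75. *Gpx8*, a peroxidase of the endoplasmic reticulum, was at 164 to 198 CPM in podocytes of every library. In the selenium list 1 of 93 tests passed, *Lrp2* in CNT, at 5.64 to 8.94 CPM in WT and 23.0 to 24.1 CPM in KO (1.81 ± 0.22, adjusted p = 0.000299, edgeR), and with a change of 2.47 without a mitochondrial limit. *Lrp2* encodes megalin, which takes up selenoprotein P, and is also a marker of the PCT list.

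Metal handling gave 2 higher and 2 lower calls among 86 tests. *Mt1* and *Mt2*, the metallothioneins that bind zinc and copper, were lower in KO podocytes, with *Mt1* at 610.0, 839 and 653 CPM in WT, against 247, 375 and 400.0 CPM in KO (-1.05 ± 0.19, adjusted p = 0.0187, edgeR) and *Mt2* with a change of -1.07 ± 0.23 (0.0450). The call of *Mt1* was lost without WT replicate 2 or 3 (0.0893 and 0.0536), and that of *Mt2* without either of these or KO replicate 1 or 2 (up to 0.166). *Slc39a8*, an importer of zinc and manganese, was higher in LOH (6.86 to 8.57 against 13.5 to 17.6 CPM, 0.98 ± 0.17), a call lost without both *Xist* libraries (adjusted p = 0.0566, edgeR). *Slc31a2*, a copper transporter, was higher in PC (11.9 to 13.8 against 23.7 to 31.4 CPM, 1.13 ± 0.22). That call was lost when replicate 1 or 2 of either group was left out (up to 0.0883) and without both *Xist* libraries (0.158).

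Among sources of superoxide and hydrogen peroxide, 2 of 62 tests passed with a higher and 3 with a lower level. *Nox4*, the NADPH oxidase of the kidney, was at 5.65, 5.34 and 3.16 CPM in WT, against 16.8, 10.9 and 10.7 CPM in KO LOH (1.44 ± 0.24, adjusted p = 0.00548, edgeR) and at 52.0 to 76.3 against 97.0 to 148 CPM in macula densa cells (0.94 ± 0.21, 0.0346). Leaving out WT replicate 1 or 3, or KO replicate 1 or 2, ended the second call (up to 0.227). *Pipox*, a peroxisomal oxidase that forms hydrogen peroxide, was lower in CNT (-2.45 ± 0.47, and -0.99 without a mitochondrial limit), DCT (-0.76 ± 0.16) and LOH (-0.64 ± 0.16). These calls were lost without KO replicate 1 or 3 in CNT (0.0751 and 0.0573), without any 1 library in DCT (up to 0.264) and without any but WT replicate 3 in LOH (up to 0.158). In CNT every KO library lay below the filter on low counts, so *Pipox* was tested there only through its WT levels. Of the peroxisome list 1 of 159 tests passed, *Abcd3*, a transporter of the peroxisome membrane, lower in CNT (-0.52 ± 0.12, adjusted p = 0.0350, edgeR), a call lost without any library but WT replicate 2 (up to 0.176). In the list around GPX4, 4 of 104 tests passed with a higher and 2 with a lower level. Of these 6, 5 were in LOH, where 11 genes of the list were tested and 4.36% of all genes passed. The list was chosen with earlier results of these data known, so this count is no independent result. Only the 3 largest changes in LOH are named. There *Alox15*, a lipoxygenase, was at 0.323 to 1.05 CPM in WT and 4.23 to 16.3 CPM in KO (3.66 ± 0.57, adjusted p = 0.00389, edgeR, on 13 and 166 UMIs). Every WT library lay below the filter on low counts, so *Alox15* was tested only through its KO levels. Its change was 3.02 without KO replicate 1, 4.29 without WT replicate 3 and 2.71 without both *Xist* libraries. In the same cells *Alox12* was lower (10.9 to 18.3 against 5.81 to 7.31 CPM, -1.16 ± 0.21), and *Ncoa4*, the receptor for degradation of ferritin, was higher (56.8 to 61.4 against 82.8 to 91.9 CPM, 0.59 ± 0.09). The call of *Alox12* was lost without both *Xist* libraries (adjusted p = 0.111, edgeR), and that of *Ncoa4* with a mitochondrial limit of 30% (0.553). In DCT *Tfrc*, the transferrin receptor, was higher (91.1 to 123 against 145 to 193 CPM, 0.63 ± 0.13), a call lost without any library but WT replicate 1 (up to 0.260).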

How the data were processed

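Single cells of the renal cortex had been captured on the BD Rhapsody system. Deposited values are whole UMI counts, 1 matrix per mouse with genes against barcodes, which the authors obtained from the vendor's WTA pipeline on mm10 with a GENCODE annotation, without normalisation. The submitters' processing notes name Scanpy 1.8. The 8 members and the lists were chosen with earlier results of these data known.

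Barcodes with 500 to 60000 UMIs, 200 to 8000 genes and at most 50% mitochondrial UMIs were kept. The median share of mitochondrial UMIs per library was 19.1% to 29.4%. The automatic threshold of Scrublet marked 0.0747% to 0.292% of cells, so the top 6% of scores were removed in each library. Counts were scaled to 10000 per cell, and 2000 variable genes, without the 91 members and list genes, gave 30 components, 15 neighbours and Leiden clusters at resolution 1.0 (scanpy 1.11.5). Clusters were named from 128 markers, and 1 cluster (366 cells) stayed unnamed. *Lif* and *Gdf15* were among the leading genes of PC, *Nupr1* of a podocyte cluster, and *Ccl3*, *Ccl4* and *Tnf* of macrophages. Class names rebuilt from markers can differ from those of the study.

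Counts were summed per library and class and tested with edgeR 4.0.16 in R 4.3.3 (TMM, filterByExpr with a minimum count of 10, two-sided, classes of at least 10 cells in every library), with DESeq2 1.42.0 as an alternative. Levels are CPM computed here. The 95% intervals of log2 fold changes use the normal approximation. The test was also run on counts simulated from LOH, which does not check the smaller classes. Each library is 1 mouse by its label, and p-values measure the spread between these mice. The named list genes were those that passed, at most 3 per list and class by size of change, and like genes the 3 of highest r among genes with a mean of at least 10 CPM in any class. Coordinates are of GENCODE vM21, counted from 1. Limits of counts cover counting error only, while the 95% intervals also rest on the spread between libraries as fitted by edgeR. Alternatives were other scaling, tests, filters, blocks, cell limits and leaving out each library.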

Additional observations from a re-analysis of the deposited data

Results flagged for a closer look

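*Gpx3* and *Sod3* differed between WT and KO in opposite directions in different classes, with every KO library on one side of every WT library in each class named. For *Gpx3* the log2 fold change, KO over WT, was 2.26 in DCT, 2.62 in LOH and 1.96 in macula densa cells, against -1.80 in the *Akap12* cluster and -1.26 in macrophages, the last being -0.64 without WT replicate 2 and -0.67 without both *Xist* libraries. For *Sod3* it was 1.08 in DCT and 2.37 in LOH, against -1.87 in the *Akap12* cluster and -0.998 in podocytes. The difference between the classes was not tested, since the members were chosen with some of these values in view. Of these values, *Gpx3* in LOH and DCT and *Sod3* in LOH prompted the choice and are given without a test. Those of *Gpx3* in the *Akap12* cluster and macrophages and of *Sod3* in the *Akap12* cluster and DCT did not pass in edgeR.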

How the results depend on the processing

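Without the 3 differences behind the choice of genes, 6 of 85 tests passed. With them it was 9 of 88. The counts in this section include those 3, whose passing is no support, and describe only how the number moved with the processing. The number was 5 of 72 with a mitochondrial limit of 30%, which left too few macula densa and PCT cells to test and 411 WT and 398 KO cells in LOH, and between 8 and 12 under the other choices that kept all libraries. Leaving out 1 library in turn gave 7 to 8. The class of highest mean was kept for 8 of 8 members with no doublets removed, for 5 of 8 with no mitochondrial limit, where *Gpx4* moved to podocytes, *Sod1* to T and NK cells and *Sod2* to PC, and for 7 to 8 without 1 library. *Gpx3* in macula densa cells was -0.20 without a mitochondrial limit, where clusters were drawn anew. Its cause was not tested. *Gpx6* in DCT and *Sod3* in podocytes kept direction and threshold in each of 16 alternatives, of which that with classes of at least 20 cells repeats the main test. *Gpx4* in LOH, which did not pass, was 0.10 in place of -0.24 with a mitochondrial limit of 30%.

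Libraries shared only replicate numbers. Deviations of same-numbered libraries from their group means correlated at -0.23 to 0.21 over 39 pairs, and in 0 of 13 classes were all above 0.1. With the replicate number as a block 9 tests passed, *Gpx3* in IC no longer (0.81, adjusted p = 0.0885, edgeR) and *Gpx6* in podocytes newly (1.37, 0.0499). With *Xist* libraries as a block 9 passed, and without them 8. PCT, with as few as 11 cells in a KO library, limits what could be seen where 6 of the 8 genes were highest.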
